A study of Rattus norvegicus with 45 samples.

Results

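The comparison described here is heroin vs. saline self-administration (SA) in rats that received the empty vector, 8 heroin empty rats against 7 saline empty rats, or 15 of the 45 libraries of the series. The columns of the deposited table were assigned by the drug and vector in their labels, and a gene was tested where its value was above the lowest of the table in 7 or more of these 15 rats, which left 20377 of 32883 genes. All 15 were male wild-type Sprague-Dawley rats that took heroin or saline intravenously for 10 d. On day 11 they were given a GFP-expressing virus with no histone insert in the ventral tegmental area (VTA). Tissue was taken on abstinence day 30, a count that starts after SA and not on day 1 of it. The saline rats carried the same virus and abstinence, so the groups differ by drug alone as labelled. The virus is called AAV2 in one source and lentiviral in another. Punches of 2 mm were taken from GFP-lit VTA, and each rat gave 1 polyA-selected library. The other 2 vectors, used below only for side-by-side values, carried wild-type histone H3.3 (H3.3 WT) or H3.3Q5A, a mutant that cannot be dopaminylated at glutamine 5.

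The VTA holds dopamine neurons that project to the striatum and cortex, together with GABA and glutamate neurons, and myelinated tracts run through and beside it. Opioids act there largely by quieting GABA neurons, which frees dopamine neurons to fire, and abstinence from opioids leaves lasting changes in synapses and firing. A punch pools neurons, myelinating oligodendrocytes, blood vessels and nearby membranes, so fewer cells of a type and less RNA per cell cannot be told apart in these libraries. Whether the tissue was VTA could not be checked from its defining genes, since 0 of the 16 dopamine neuron markers had a symbol among the identifiers that could be named.

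Values are counts after a variance-stabilizing transformation and read as log2 units, so a log2 fold change is the heroin mean minus the saline mean. It understates the change of genes with few reads. Reads on genes recovered from these values ran from 24308953 to 48081011 with a median of 36011865 in heroin rats, and from 29726998 to 59608712 with a median of 55197003 in saline rats. The log2 difference in totals was -0.37 (two-sided exact permutation test over rats, p = 0.0867), and its part in the results below was not tested beyond the alternatives given. On the first principal component of the 15 rats, which held 36.2% of the variance, 6 of 7 saline rats had scores from 1.22 to 29.5 and 6 of 8 heroin rats from -25.9 to -11.4. Saline rat 18 stood on the heroin side at -16.2, and heroin rats 2 and 21 on the saline side at 19.9 and 6.32. Calls that changed without rat 18 or rat 2 are given with and without them. Both stood on the side of the other group, so more calls without them were favoured in advance. Such rises are no support for a call.

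Which transcripts differed in the VTA after prolonged abstinence from heroin was asked first across all genes. Of 20377 genes tested with limma across all 6 groups, 125 (0.613%) were differentially expressed (DEx), defined as a Benjamini-Hochberg adjusted p under 0.05 with a log2 fold change beyond 0.2. They comprised 59 genes that rose (0.29%) and 66 that fell (0.324%). The genes that rose had a median log2 fold change of 0.32 and those that fell of -0.51, against -0.0065 over all genes tested, and 7 DEx genes moved by more than 1 on the log2 scale. The groups did not overlap in 22 of the 125 DEx genes, where 49 of all genes tested (0.24%) did not overlap. At an unadjusted p under 0.05 there were 3969 genes (19.5%), 1930 (9.47%) higher and 2039 (10%) lower in heroin rats.

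The balance of directions moved with the scaling, from 59 higher and 66 lower to 230 and 97 with the medians of the rats aligned, 6 and 13 after quantile normalization, and 14 and 54 with voom on the recovered reads.

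The DEx calls lay close to the threshold. The lowest adjusted p was 0.0231, and 109 of the 125 genes had an adjusted p above 0.04 (limma, Benjamini-Hochberg). Without any single one of saline rats 42, 15 or 13, or of heroin rats 14, 13, 7 or 6, the count fell to 0, although 3006 to 3530 genes still had an unadjusted p under 0.05. Without saline rat 10 it was 1, without saline rat 22 it was 13 and without heroin rat 21 it was 44. Without saline rat 18 it was 1299 and without heroin rat 2 it was 1107, and all 125 genes were among each of these. Without heroin rat 5 or saline rat 41 it was 213 or 245. With 1 residual factor, a leading axis of the spread within groups in the manner of RUVr, the fold changes were the same. Then 1690 genes were called, 773 higher and 917 lower, the 125 included. The factor was taken from the residuals of the same group fit. Equal fold changes were thus fixed in advance and more calls were favoured, so the rise is no separate support. With the log2 read total as a covariate 0 genes were called and 3605 had an unadjusted p under 0.05.

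**Figure D1:**
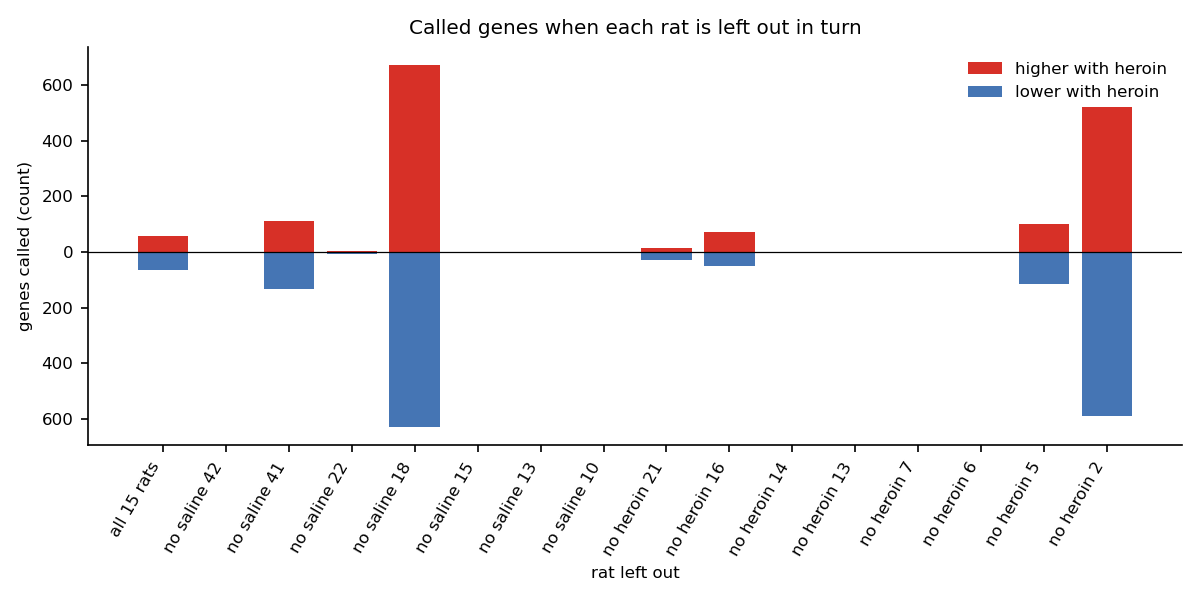
Called genes (count, vertical axis) with all 15 rats and with each rat left out in turn (horizontal axis), drawn upwards for genes higher and downwards for genes lower in heroin rats. Leaving out saline rat 18 gave 1299 calls and heroin rat 2 gave 1107, while leaving out any of 7 other rats gave 0.

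The calls could be named in few cases, because the values carry Ensembl identifiers and symbols were at hand for 1998 of the genes tested. Of these, 10 (0.501%) were DEx, 4 up and 6 down. The symbols come from a listing ordered by another contrast that used the same saline empty rats, and the named genes had a median p of 0.0099 when H3.3 WT was set against empty within saline rats, against 0.346 for genes without a symbol. The named genes are thus no neutral sample of the transcriptome, and counts over gene lists below describe only the members with a symbol.

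The named genes that rose were Atp2b2, Syt2, Iqsec1 and Gm27820. All 10 named DEx genes were still called without saline rat 18 (adjusted p 0.00545 to 0.0153, limma) and without heroin rat 2 (0.0118 to 0.0199), and 0 without saline rat 15. After quantile normalization 1 was called, Atp2b2. With voom on the recovered reads 3 were called, Atp2b2, Btg1 and Iqcd, and in a fit of the 15 rats alone 3, Atp2b2, Slc24a1 and AABR07019383.1.

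Atp2b2 encodes a plasma membrane pump that moves calcium out of neurons, and lies at chr4:145703045-146016325 of rn6. It ran from 14.2 to 15.1 with a median of 14.6 in heroin rats and from 13.9 to 14.5 with a median of 14.03 in saline rats. All 8 heroin rats stood above the saline mean and 6 above every saline rat, and the highest saline value was that of rat 18. The log2 fold change was 0.53 (SE 0.11, adjusted p = 0.0246), a ratio of 1.46 in normalized counts. With voom the adjusted p was 0.0314 and after quantile normalization 0.0305, and it was called in 6 of the 15 fits that left out a rat.

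Syt2 encodes synaptotagmin 2, a fast calcium sensor of vesicle release found in rapidly firing neurons, and lies at chr13:51534024-51578052 of rn6. In heroin rats it ran from 11.4 to 13.4 with a median of 12.6, and in saline rats from 10.9 to 12.5 with a median of 11.5. The groups overlapped, since heroin rat 2 lay below the saline mean and saline rat 18 was the highest of its group. At 1.14 (SE 0.29, adjusted p = 0.0486), its log2 fold change was the only one above 1 among genes that rose, and its ratio of normalized counts was 2.30. After quantile normalization the log2 fold change was 1.10 with an adjusted p of 0.0629, and with voom 1.12 with an adjusted p of 0.0571.

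The start regions of these genes are shown because they had the highest log2 fold changes of the 4 named genes that rose. They are RefSeq promoters of build GRCr8, 250 bases before to 50 after the annotated start, written 5′ to 3′ on the strand of the gene, with matches to the GC box letters GGGCGG on either strand in capitals. The Atp2b2 window is chr4:148763604-148763903 on the minus strand and the Syt2 window is chr13:48736872-48737171 on the plus strand.
Atp2b2: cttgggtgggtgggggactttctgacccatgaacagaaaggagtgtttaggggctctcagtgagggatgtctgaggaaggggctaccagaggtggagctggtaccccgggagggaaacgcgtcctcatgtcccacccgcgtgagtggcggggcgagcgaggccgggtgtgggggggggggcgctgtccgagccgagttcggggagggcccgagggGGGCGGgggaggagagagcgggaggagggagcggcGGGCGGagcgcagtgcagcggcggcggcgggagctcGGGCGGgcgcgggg
Syt2: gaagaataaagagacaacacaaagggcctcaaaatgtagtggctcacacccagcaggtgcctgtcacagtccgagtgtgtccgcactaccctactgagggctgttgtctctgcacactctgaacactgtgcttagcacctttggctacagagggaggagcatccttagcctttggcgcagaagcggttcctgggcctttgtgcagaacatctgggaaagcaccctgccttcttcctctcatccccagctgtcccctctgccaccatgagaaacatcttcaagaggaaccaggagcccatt
The Atp2b2 window held 3 matches, 28 CpG pairs and 72.3% G and C bases, and the Syt2 window 0 matches, 4 CpG pairs and 54% G and C bases. Whether transcription begins at these annotated starts in the VTA was not tested. Of the 10 DEx genes with a symbol 7 had a promoter in the RefSeq set, and 3 of these held the letters, where 33.1% of all 33469 promoters did.

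The other 2 named genes that rose moved less. Iqsec1 encodes an exchange factor for small Arf GTPases at the postsynaptic side of excitatory synapses. Its heroin values ran from 13.4 to 13.9 with a median of 13.6 and its saline values from 13.1 to 13.5 with a median of 13.3, and 5 heroin rats stood above every saline rat. The log2 fold change was 0.31 (SE 0.077, adjusted p = 0.0481), with an adjusted p of 0.0701 after quantile normalization and 0.0574 with voom. Gm27820 is annotated as a miscellaneous RNA at chr19:31615785-31615965 of rn6, with a heroin range of 7.39 to 7.75 around a median of 7.51 and a saline range of 6.93 to 7.34 around 7.27. Its groups did not overlap, and the log2 fold change was 0.31 (SE 0.079, adjusted p = 0.0484). For this RNA the adjusted p was 0.0549 after quantile normalization and 0.0574 with voom, where the log2 fold change was 0.58. Beside it on the opposite strand, at chr19:31524670-31614246, lies Hhip, which was not DEx (log2 fold change 0.52, limma adjusted p = 0.0515). Ratios of normalized counts were 1.52 for Gm27820 and 1.49 for Hhip. Whether the reads at Gm27820 came from Hhip transcripts was not tested.

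Of the 6 named genes that fell, all but Btg1 and Rhpn1 had a mean value below 9.04, the median of all genes tested. Btg1, which encodes an antiproliferative protein that recruits deadenylases to transcripts, ran from 9.98 to 10.5 with a median of 10.2 in heroin rats and from 10.2 to 10.9 with a median of 10.7 in saline rats. All 8 heroin rats lay below the saline mean, and the lowest saline value was that of rat 18. Heroin rats differed by -0.39 on the log2 scale (SE 0.086, adjusted p = 0.0451). The difference was -0.46 without rat 18 (adjusted p = 0.00545) and -0.37 without saline rat 15 (adjusted p = 0.150). Btg1 was called in 6 of the 15 fits that left out a rat. After quantile normalization the adjusted p of Btg1 was 0.0579.

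Slc24a1 encodes a sodium, calcium and potassium exchanger known from rod photoreceptors. It ran from 7.36 to 8.42 with a median of 7.74 in heroin rats and from 7.60 to 9.14 with a median of 9.07 in saline rats. Saline rat 18, at 7.60, was the only saline rat within the heroin range. The log2 fold change was -1.02 (SE 0.23, adjusted p = 0.0451), a ratio of 0.361 in normalized counts. It was -1.22 without rat 18 (adjusted p = 0.00545) and -0.97 without saline rat 15 (adjusted p = 0.152). Slc24a1 was called in 6 of the 15 fits that left out a rat. After quantile normalization the adjusted p of Slc24a1 was 0.0585, and with voom 0.0574.

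Tbx19 encodes a T-box factor known from corticotrophs of the pituitary. Its heroin values ran from 6.80 to 7.77 with a median of 7.09 and its saline values from 7.13 to 8.61 with a median of 8.37. The overlap came from saline rats 18 and 41, at 7.13 and 7.61. The log2 fold change was -0.90 (SE 0.23, adjusted p = 0.0484). It was -1.07 without rat 18 (adjusted p = 0.00955) and -0.82 without saline rat 15 (adjusted p = 0.152). Tbx19 was called in 4 of the 15 fits that left out a rat. After quantile normalization the adjusted p of Tbx19 was 0.0629, and on the log2 counts-per-million scale of voom its log2 fold change was -1.63 with an adjusted p of 0.0593.

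Rhpn1 ran from 9.0 to 10.2 with a median of 9.24 in heroin rats and from 9.73 to 10.7 with a median of 10.1 in saline rats. The groups overlapped, with 6 heroin rats below every saline rat. On the log2 scale the difference was -0.79 (SE 0.19, adjusted p = 0.0481), with an adjusted p of 0.0585 after quantile normalization and 0.0574 with voom. Iqcd encodes a component of the dynein regulatory complex of cilia and flagella, with a log2 fold change of -0.57 (SE 0.14, adjusted p = 0.0481) and 6 of 8 heroin rats below every saline rat. Its adjusted p was 0.0629 after quantile normalization, and with voom its log2 fold change was -0.89 (adjusted p = 0.0466). AABR07019383.1 is a processed transcript with no assigned role at chr15:103208257-103244494 of rn6. It ran from 5.99 to 7.45 with a median of 6.56 in heroin rats and from 6.46 to 10.1 with a median of 8.80 in saline rats, and the overlap came from saline rat 18 alone. Its log2 fold change was -2.13 (SE 0.49, adjusted p = 0.0451). The value was -2.50 without rat 18 (adjusted p = 0.00576) and -1.92 without saline rat 15 (adjusted p = 0.152). AABR07019383.1 was called in 5 of the 15 fits that left out a rat. After quantile normalization the adjusted p of AABR07019383.1 was 0.0585, and with voom it was 0.0979 at a log2 fold change of -4.46.

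**Figure D2:**
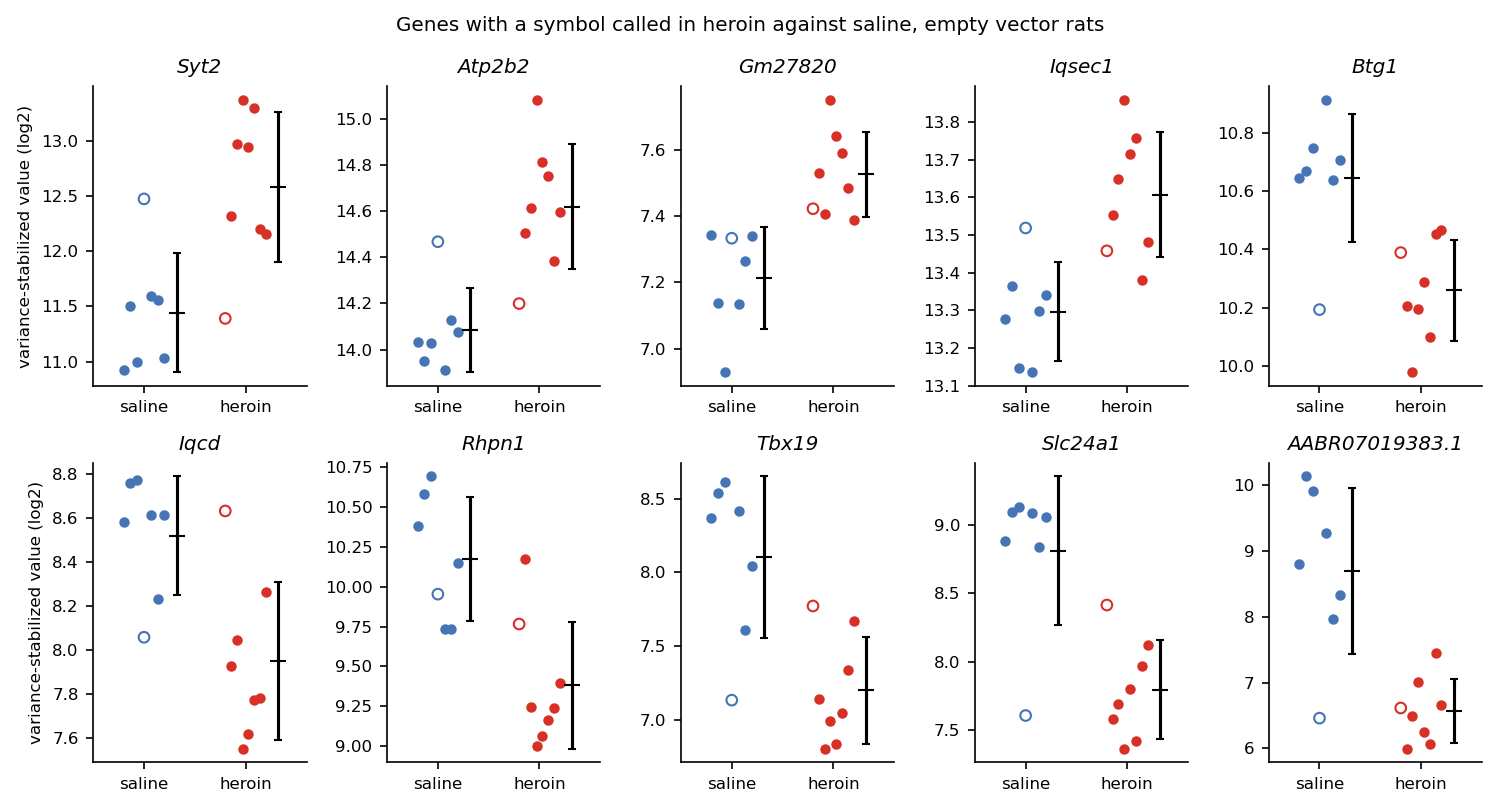
Variance-stabilized values (log2, vertical axes) of the 10 DEx genes with a symbol in each saline and heroin rat, with the group mean and SD as black bars beside the points and saline rat 18 and heroin rat 2 as open circles. Gm27820 shows no overlap. The open saline circle lies within or near the heroin points in panels that include Atp2b2, Syt2, Btg1, Slc24a1, Tbx19 and AABR07019383.1.

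Among DEx genes without a symbol, the lowest p in each direction belonged to ENSRNOG00000010780 (log2 fold change 0.27, adjusted p = 0.0231), ENSRNOG00000003905 (0.37), ENSRNOG00000013364 (-0.33) and ENSRNOG00000047941 (-0.50). ENSRNOG00000010780 ran from 11.4 to 11.7 in heroin rats and from 11.2 to 11.4 in saline rats, with all 8 heroin rats above every saline rat.

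The direction of the calls differed with read level, the mean value of a gene over the 15 rats, which follows transcript length as well as abundance. The genes that rose had a median read level of 12.6 and those that fell of 8.66, against 9.04 over all genes tested. With genes split into 4 bins of equal size by read level, 50 genes rose and 6 fell in the top bin, and 1, 3 and 5 rose and 12, 24 and 24 fell in the other bins, from the lowest upwards. At an unadjusted p under 0.05 the top bin held 1047 higher and 337 lower genes, and the bin next to the lowest held 281 and 800. With reads thinned to the total of the shallowest library, the unadjusted counts of the top bin were 1045 and 326. Without saline rat 18 they were 1250 and 470, and without heroin rat 2 they were 1163 and 439. The split in the top bin was lost after quantile normalization, which gives every rat the same distribution of values, with 645 higher and 610 lower. In voom on read totals the top bin held 589 and 730, but the median log2 fold change was negative in each bin. It was -0.107 in the lowest bin and -0.022 in the top bin. The bin next to the lowest held 201 and 1050 in voom, so the top bin still had the larger share of higher genes. With the medians of the rats aligned, the top bin held 1495 and 161.

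**Figure D3:**
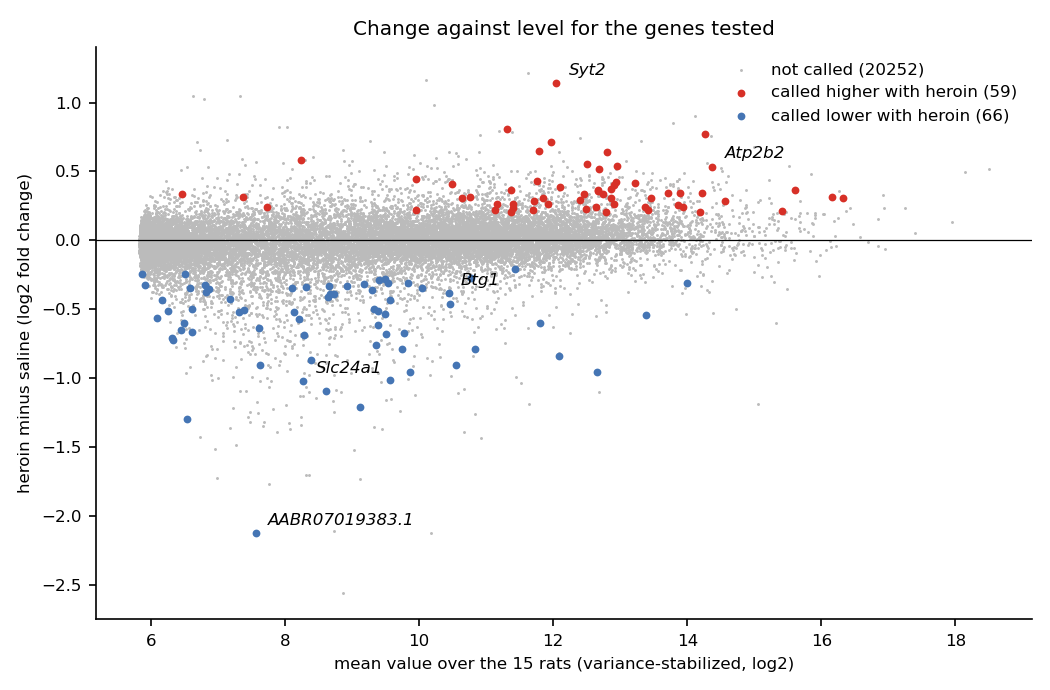
Heroin minus saline log2 fold change (vertical axis) against the mean value over the 15 rats (variance-stabilized, log2, horizontal axis) for 20377 genes, with DEx genes in red where higher and in blue where lower. The 59 red points lie mostly to the right, around a median level of 12.6, and the 66 blue points mostly to the left, around 8.66.

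Gene lists were used to ask which cell types and pathways moved together. Genes of myelinating oligodendrocytes, the cells that wrap axons in myelin, had 13 of 20 members with a symbol, and 0 were DEx. All 13 were higher in heroin rats (12 after quantile normalization), with a median log2 fold change of 0.49 and adjusted p from 0.0918 to 0.381. Of all genes tested 47.5% were higher, and of those with a symbol 49.4%. The members got symbols through the listing that used the same saline empty rats, and these shares do not control for that. Genes of a cell type are also not independent of each other. Mobp, a structural protein of compact myelin, ran from 15.1 to 16.3 with a median of 15.8 in heroin rats and from 14.9 to 16.1 with a median of 15.2 in saline rats, a log2 fold change of 0.54 (SE 0.18, adjusted p = 0.0918). Mbp, myelin basic protein, differed by 0.52 (SE 0.19, adjusted p = 0.117).

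The overlap of the myelin genes came from 1 rat on each side. The mean of the 13 genes ran from 13.1 to 14.3 with a median of 13.8 in heroin rats, where rat 2 was the lowest, and from 13 to 14.05 with a median of 13.3 in saline rats, where rat 18 was the highest. Without saline rat 18, 11 of the 13 genes were DEx with a median of 0.61. Without heroin rat 2, 7 were DEx with a median of 0.57, and without any other single rat 0 were. With 1 residual factor, which favours more calls as given above, 12 of the 13 were DEx. Genes of oligodendrocyte precursors followed, with 7 of 11 named, 0 DEx, 7 of 7 higher and a median of 0.30, among them the lineage factor Olig2 at 0.32 (SE 0.13, adjusted p = 0.17). Without saline rat 18, 2 of the 7 precursor genes were DEx, and without heroin rat 2, 1 was. Without any other single rat 0 of the 7 were.

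Of the lists on neuronal function, synaptic vesicles and release had 3 of 22 members named, with 1 DEx gene, Syt2, and a median of 0.75. Cplx1, which encodes complexin 1, a clamp and activator of the release machinery, ran from 13.6 to 15.5 with a median of 14.8 in heroin rats and from 13.5 to 14.9 with a median of 13.8 in saline rats. Its log2 fold change was 0.75 (SE 0.23, adjusted p = 0.0732), and it passed without saline rat 18 or heroin rat 2. Those were the only 2 of the 15 fits leaving out a rat in which Cplx1 passed. Without saline rat 15 its adjusted p was 0.174. Syn1, which tethers vesicles to the cytoskeleton, differed by 0.16 (SE 0.087, adjusted p = 0.325). Voltage-gated channels and genes of the action potential had 4 of 32 named, with 1 DEx gene, Atp2b2, and a median of 0.38. Hcn2, a pacemaker channel, was at 0.32 (adjusted p = 0.28) and Scn3a, a sodium channel pore subunit, at -0.19 (adjusted p = 0.291). Without saline rat 18 or without heroin rat 2, 2 of these 4 genes were DEx. Glutamate receptors had 4 of 19 named, 0 DEx and a median of 0.020 (-0.032 with voom). The highest was Grm3, a metabotropic receptor, at 0.49 (SE 0.15, adjusted p = 0.0792). Grm3 was DEx without saline rat 18 (adjusted p = 0.0196) and without heroin rat 2 (adjusted p = 0.0316). Without saline rat 15 its adjusted p was 0.208.

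Of genes of vessels, membranes and matrix 0 were DEx. Fibroblasts and meninges had 5 of 15 members named, 0 DEx, all 5 lower and a median of -0.47, with Fbln1, a matrix glycoprotein, from 9.91 to 11.5 with a median of 10.4 in heroin rats and from 10.7 to 11.8 with a median of 11.3 in saline rats. Its log2 fold change was -0.84 (SE 0.26, adjusted p = 0.0785), and -0.99 without heroin rat 5 (adjusted p = 0.0476). Heroin rat 5 was the highest of its group in the mean of this list, at 10.1 against 8.86 to 9.43 in the other heroin rats. Pericytes and smooth muscle had 7 of 12 named, 0 DEx, 5 lower and a median of -0.42 (-0.27 without saline rat 13), and collagens, basement membrane and matrix remodeling 6 of 26, 0 DEx, 6 lower (all but 1 after quantile normalization) and a median of -0.23. Endothelial cells had 7 of 12 named, 0 DEx, 6 higher and a median of 0.081, which ran from 0.032 to 0.139 as single rats were left out. Red blood cells had 6 of 8 named, 0 DEx, 3 higher and a median of -0.0022, which was 0.033 with the medians of the rats aligned. Col1a1, the main chain of type I collagen, differed by -0.66 (SE 0.37, adjusted p = 0.324).

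**Figure D4:**
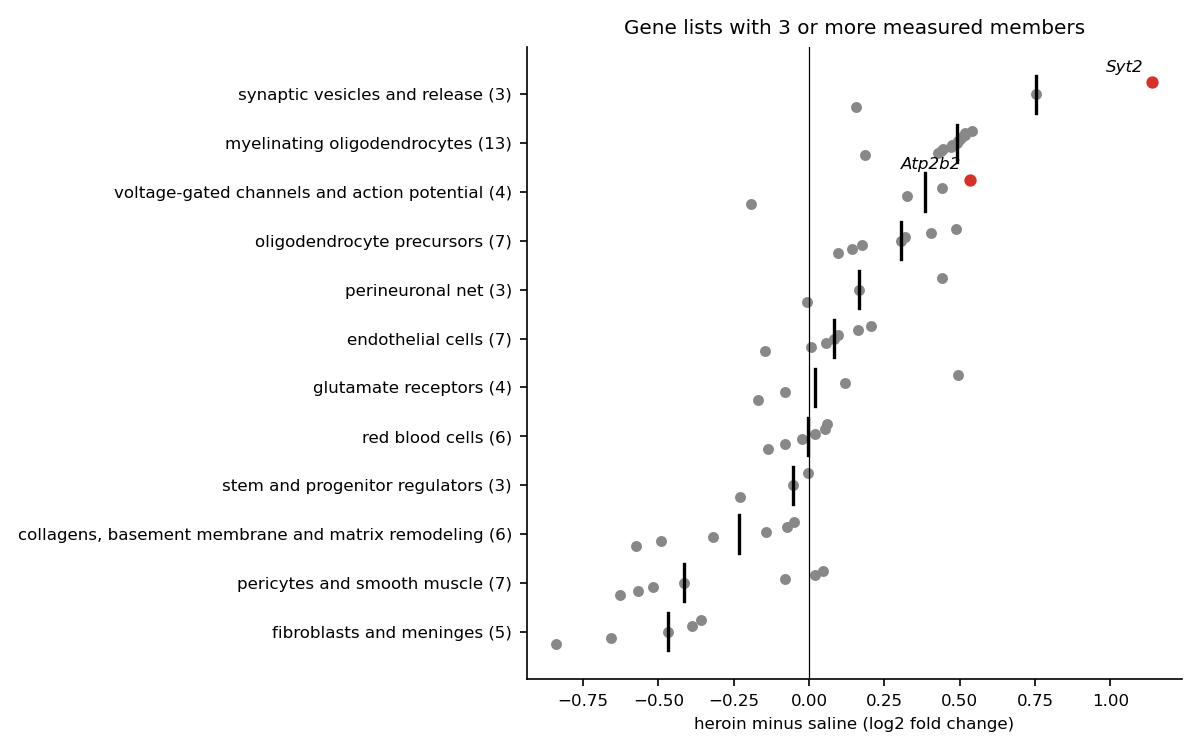
Heroin minus saline log2 fold change (horizontal axis) of each named member of the 12 gene lists with 3 or more measured members (number in parentheses), with the list median as a vertical line and DEx genes in red. The 13 myelin genes all lie to the right of 0 on the deposited scale (12 after quantile normalization) and the 5 fibroblast genes all to the left, and the DEx members are Syt2 and Atp2b2.

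Some neighbouring tissues left signs in the libraries. Of 8 pituitary markers the 2 with a symbol were lower in heroin rats, Cga, the shared subunit of glycoprotein hormones, by -1.77 (SE 0.71, adjusted p = 0.158) and Tshb, the thyrotropin subunit, by -1.09 (SE 0.47, adjusted p = 0.188). Cga ran from 5.73, the lowest value of the table, to 10.4 in heroin rats and from 5.73 to 12.6 in saline rats, and Tshb reached 11.7 in saline rat 15. Without that rat the log2 fold change was -1.13 for Cga (adjusted p = 0.436) and -0.48 for Tshb (adjusted p = 0.576). Without saline rat 18 Cga was called, at -2.27 (adjusted p = 0.0413). Of 20 ependymal and ciliated cell markers the 2 with a symbol were Tekt1, a filament protein of ciliary microtubules, at -0.64 (SE 0.19, adjusted p = 0.0636), and Rsph1, a radial spoke protein, at -0.63 (SE 0.24, adjusted p = 0.133). For Tekt1, 7 of 8 heroin rats lay below every saline rat and heroin rat 2 above all of them. Without that rat both genes were DEx, Tekt1 at -0.79 (adjusted p = 0.0190) and Rsph1 at -0.83 (adjusted p = 0.0237), and without saline rat 18 Tekt1 was (adjusted p = 0.0255). Of the 15 fits that left out a rat, Tekt1 was called in 2 and Rsph1 in 1. The part of these tissues in the calls was not tested.

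**Figure D5:**
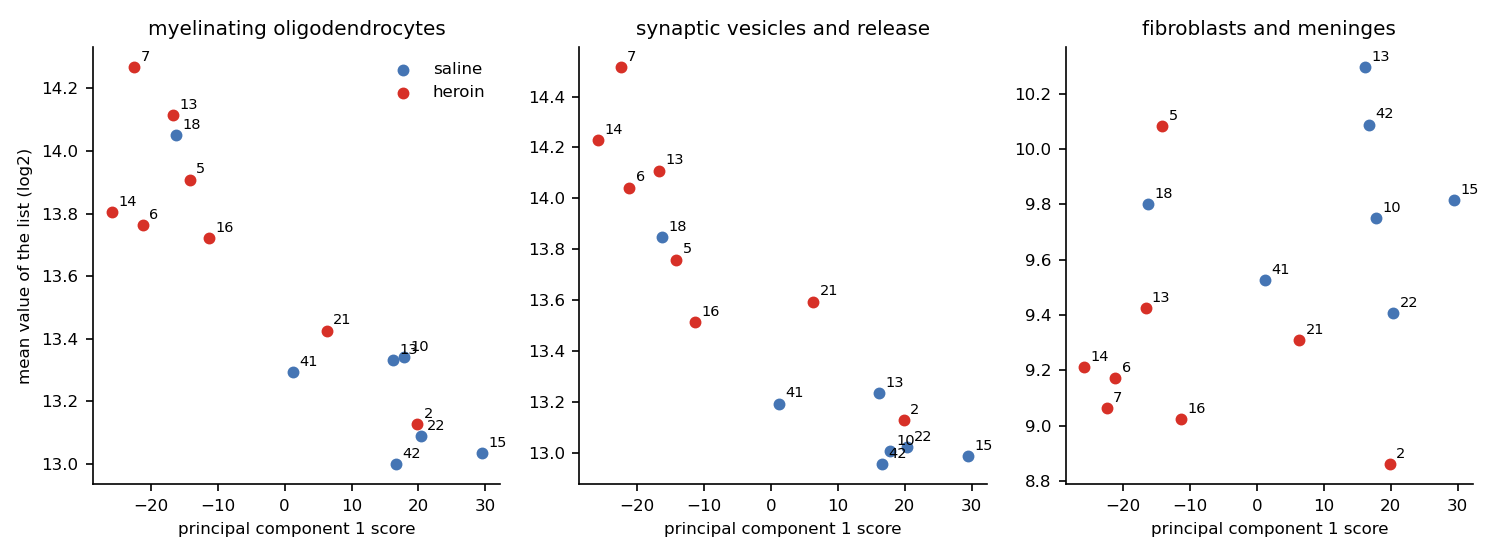
Mean value (log2, vertical axes) of the named genes of myelinating oligodendrocytes, synaptic vesicles and fibroblasts in each numbered rat against its score on the first principal component (horizontal axes), saline in blue and heroin in red. Saline rat 18 lies among the heroin rats and heroin rat 2 among the saline rats for myelin and synaptic genes, and heroin rat 5 is the highest heroin rat for fibroblast genes.

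Lists tied to the question of the study had few named members. Tgm2, the enzyme that attaches dopamine to histone H3, ran from 8.72 to 10.1 with a median of 9.66 in heroin rats and from 9.18 to 10.1 with a median of 9.80 in saline rats. The groups overlapped throughout, and the log2 fold change was -0.12 (SE 0.20, adjusted p = 0.787), with a 95% confidence interval of -0.53 to 0.28. Adcy5, the adenylyl cyclase downstream of dopamine receptors, differed by -0.051 (adjusted p = 0.692), and Ier2, an immediate early gene, by -0.13 (adjusted p = 0.669). Nfkbia, a glucocorticoid-responsive inhibitor of NF-kB, differed by -0.14 (adjusted p = 0.362), Hspb1, a small heat shock protein, by -0.21 (adjusted p = 0.623), and Cx3cr1, the fractalkine receptor of microglia, by 0.23 (adjusted p = 0.27). Of 18 nuclear respiratory chain genes the 2 named, Ndufv1 of complex I and Cox5a of complex IV, differed by 0.19 (SE 0.050, adjusted p = 0.0504) and 0.20 (SE 0.061, adjusted p = 0.0732), and in both every heroin rat exceeded the saline mean. Both were DEx without saline rat 18 (adjusted p = 0.00955 and 0.0229) and without heroin rat 2 (adjusted p = 0.0208 and 0.0283). Neither was without saline rat 15 (adjusted p = 0.152 and 0.181). The remaining lists held 0 DEx genes, with medians of 0.16 for the perineuronal net (3 of 12 named), -0.053 for stem and progenitor regulators (3 of 18) and 0.051 for cholesterol synthesis (2 of 18). The lists of GABA neurons and of glutamate, serotonin and acetylcholine neurons had 1 named member each, at 0.13 (adjusted p = 0.442) and -0.019 (adjusted p = 0.969). Lists on opioid peptides and receptors, astrocytes, choroid plexus, neuropeptides, inhibitory receptors, neurofilaments, interferon response and the mitochondrial genome had 0 named members.

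The heroin effect in rats with the H3.3 WT vector, which shares no library with the comparison above, was set beside it. Both come from the same fit and share an estimate of the spread per gene, so their calls are not fully independent. Of the 125 DEx genes, 123 had the same sign there, all 59 that rose and 64 of 66 that fell, where 65.0% of all genes tested did. Among them 42 were also DEx in H3.3 WT rats, 13 up and 29 down, where 647 of 20377 genes (3.18%) were. Of the 10 named DEx genes 1 was among these, Rhpn1, at -0.99 (adjusted p = 0.00306) in H3.3 WT rats, while Atp2b2 was 0.32 (adjusted p = 0.112) and Syt2 0.69 (adjusted p = 0.218). The median of the 13 myelin genes was 0.22 in H3.3 WT rats. The test of the difference, the interaction of heroin with H3.3 WT against empty, called 0 genes with limma, with 1029 (5.05%) at an unadjusted p under 0.05, 0 with voom and 23 with 1 residual factor.

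In rats with the H3.3Q5A vector, 1 of the 125 DEx genes had the same sign of heroin effect, where 6292 of all 20377 genes did, and the interaction of heroin with H3.3Q5A against empty called 3246 genes (15.9%). That test shares the empty vector rats with the calls above, so the values are given side by side only. Atp2b2 was 0.53 in empty and -0.41 in H3.3Q5A rats (difference -0.94, SE 0.15, adjusted p = 0.00075). Syt2 was 1.14 and -1.07 (difference -2.21, SE 0.41, adjusted p = 0.00111). Slc24a1 was -1.02 and 0.67 (difference 1.69, SE 0.33, adjusted p = 0.00125). Heroin vs. saline called 218 genes (1.07%) in H3.3Q5A rats. The median of the 13 myelin genes was 0.49 in empty and -0.58 in H3.3Q5A rats.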

How the data were processed

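The authors aligned reads to rn6 (Rnor_6.0) with HISAT2 2.1.0, counted them with featureCounts 2.0.1 and, per the labels, used DESeq2 2.11.40.6. The paper also describes a correction for technical variation and batch with RUVr before DESeq2, without the number of factors. The main fit here holds no such factor, and fits with residual factors are given as alternatives. They deposited variance-stabilized counts on a log2 scale for 32883 genes and 45 libraries. Undoing the transformation returned whole reads (within 0.01) for 100% of the values checked. Precision is lowest for genes of few reads.

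Values were fitted over 44 libraries in 6 groups with limma 3.58.1 in R 4.3.3, with a trend of variance on level. Genes were called DEx at adjusted p under 0.05 where the absolute log2 fold change exceeded 0.2. Replicates are rats, so p-values measure the spread between rats. A saline library whose title and treatment name different vectors was not used. The authors' own fold changes and p-values in a supplementary table were not used. Its 1998 readable rows gave symbols and rn6 coordinates. Genes named were the 12 of lowest p in each direction (at most 2 without a symbol), DEx genes of the lists, the 2 of lowest p and 2 of highest mean per list, and 4 chosen genes (Atp2b2, Hcn2, Tgm2 and Col1a1). The 33 lists and the members were chosen with earlier results of these data known. The remaining DEx genes with a symbol were added after their values were seen. Scripts were tested on simulated data. No libraries of a group were duplicates (lowest chi-square per gene 12.6). Alternatives were 30 planned and 5 added after seeing the data. Results for some genes are not reported here.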

Additional observations from a re-analysis of the deposited data

Results flagged for a closer look

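Of 60 groups of values searched for a rat far from the others, 9 had one, where chance at 1 in 20 gives 3. These groups of values come from the same 15 rats and are not independent, so 3 is no fair yardstick. All 9 flags fell on saline rat 18 or heroin rat 5. Saline rat 18 stood apart from the other saline rats in Atp2b2 (14.5 against 13.9 to 14.1), ENSRNOG00000003905 (15.6 against 15.3 to 15.4), Btg1 (10.2 against 10.6 to 10.9), Slc24a1 (7.60 against 8.84 to 9.14), the myelin mean (14.05 against 13 to 13.3) and the synaptic vesicle mean (13.8 against 12.96 to 13.2). Heroin rat 5 stood apart from the other heroin rats in the means of pericytes and smooth muscle (10.1 against 9.22 to 9.61), fibroblasts and meninges (10.1 against 8.86 to 9.43) and collagens and matrix (10.2 against 9.42 to 9.80).

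The heroin effect differed between H3.3Q5A and empty rats in 3246 genes by the interaction term. Most genes listed here were picked from the empty vector contrast, which the interaction subtracts. Differences of the opposite sign were thus favoured in advance, and the values are given side by side only. As H3.3Q5A minus empty on the log2 scale, the differences were -0.94 for Atp2b2, -0.59 for Iqsec1, -2.21 for Syt2, -0.48 for Gm27820, -0.98 for Hcn2, -0.40 for ENSRNOG00000010780 and -0.62 for ENSRNOG00000003905. They were 0.72 for Btg1, 1.33 for Rhpn1, 1.69 for Slc24a1, 1.27 for Tbx19, 2.75 for AABR07019383.1, 0.98 for Iqcd, 1.56 for Col1a1, 0.55 for ENSRNOG00000013364 and 0.63 for ENSRNOG00000047941.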

How the results depend on the processing

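No paired analysis was possible because heroin empty and saline empty rats share only the number 13. Over 66 named genes and 35 alternatives, 0 called fold changes turned sign. The alternatives refit largely the same rats, so this was favoured in advance and is no support for the calls. Some fold changes that were not called did turn sign as single rats were left out. That of Slc17a8 ran from -0.148 to 0.071 and that of Tgm2 from -0.219 to 0.0037. The count of 125 DEx genes became 15 with no filter on low values, 221 among genes above the median level, 327 with median centring (230 higher, 97 lower), 19 with quantile normalization, 1690, 2045 and 2365 with 1, 2 and 3 residual factors, 2309 with array weights, 68 with voom (14 higher, 54 lower), 0 with the read total as covariate and 872 at an FDR of 0.1. It was 2 with the conflicting library counted as saline H3.3 WT and 110 as saline H3.3Q5A, 35 with the filter over 44 libraries, 32 with thinned reads and 2390 without saline rat 18 and with 1 residual factor. With only the 15 rats in the fit it was 124 (36 higher, 88 lower), 69 of them shared. Leaving out each rat gave 0 to 1299. The H3.3 WT interaction of 0 genes became 23, 123 and 369 with 1, 2 and 3 factors, and 129 without saline rat 18 and with 1 factor. The H3.3Q5A interaction of 3246 became 4977 and 5349 with 2 and 3 factors, 4998 with array weights and 4912 without saline rat 18 and with 1 factor. The cause was not tested. Depth limits genes of few reads.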

Other observations

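Ranked among genes with a symbol, a choice made after the values were seen, the 20 of lowest p in each direction held 4 and 6 DEx genes, and 17 and 18 with 1 residual factor. Among the 20 that were higher, those next in rank after the 4 DEx genes were Ncdn, a cytoplasmic neuronal protein, at 0.29 (SE 0.074, adjusted p = 0.0504), Ndufv1, given above, Hhip, a hedgehog-binding protein, at 0.52 (SE 0.14, adjusted p = 0.0515), and Thy1, a neuronal surface glycoprotein, at 0.29 (SE 0.076, adjusted p = 0.0515). In Hhip all 8 heroin rats exceeded the saline mean and 5 exceeded every saline rat.

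Among the 20 that were lower, those next in rank after the 6 DEx genes were Kcna5, a voltage-gated potassium channel, at -0.70 (SE 0.18, adjusted p = 0.0515), Rdh10, a retinol dehydrogenase of retinoic acid synthesis, at -0.25 (SE 0.064, adjusted p = 0.0515), and Fam227a at -0.75 (SE 0.20, adjusted p = 0.0528). Rdh10 ran from 9.24 to 9.47 in heroin rats and from 9.48 to 9.73 in saline rats, with no overlap.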
